A study of Mus musculus with 17 samples.

Results

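The splicing factor genes described here were mouse genes that encode heterogeneous nuclear ribonucleoproteins (hnRNPs), serine- and arginine-rich (SR) splicing factors and subunits of the SF3A and SF3B complexes. Members were chosen by name: a gene entered when its symbol or a current alias began with Hnrnp, Srsf, Sfrs, Sf3a or Sf3b and at least 1 probe set carried that gene's symbol alone. This gave 49 of the 18193 genes measured, read by 160 probe sets. By symbol, 19 were hnRNP genes, 10 SR genes and 9 SF3 genes. The other 11 entered through an alias alone, 10 of them through an old Sfrs name (Tra2b, Scaf4, Scaf11, Clasrp, Sfswap, Pnisr, Srek1, Srek1ip1, Sugp2 and Akap17b) and Rbmxl2 through the alias Hnrnpg-t. Srsf7 and Hnrnpa3 had no probe set of their own and were not among the 49. Each gene was represented by its probe set of highest mean.

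The values came from 17 primary tumors of TH-MYCN mice, a neuroblastoma (NB) model. In these mice the tyrosine hydroxylase promoter directs human MYCN to cells of the neural crest lineage. All 17 carried the same genotype, the mice were hemizygous for the transgene, and each tumor, named mad548 to mad565, was hybridized to 1 whole-genome Affymetrix mouse array. There was 1 group and no untreated or normal tissue, so no comparison between conditions could be made, and the labels gave no age, sex or treatment for a tumor. Since each tumor had 1 array, the spread reported below holds both the difference between tumors and the error of the array.

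Splicing removes introns from pre-mRNA in the spliceosome, which is assembled anew on each intron from small nuclear ribonucleoproteins (snRNPs) and further proteins. SR proteins bind exonic enhancers and recruit U1 and U2 components, hnRNPs bind nascent RNA and often oppose SR proteins at the same exons, and SF3A and SF3B are the parts of the U2 snRNP that hold it at the branch site. SR proteins are switched by phosphorylation, mainly by the SRPK and CLK kinases. MYC family proteins are known to drive transcription of several splicing factor genes, which is one reason for interest in these families in MYCN-driven tumors.

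The promoters of Hnrnpd, Hnrnpdl and Srsf5 are printed because these genes belong to the 2 pairs whose levels were related over the tumors (below). No promoter entry was found for Clk1, the partner of Srsf5. Sequences run from 250 bases before to 50 bases after the annotated start, on the strand of the gene, from RefSeq (GRCm38.p6), and capitals mark a match, on either strand, to CACGTG (the E-box bound by MYC family proteins) or CCGGAA (the core bound by ETS factors).
Hnrnpd, chr5:99978889-99979188, minus strand: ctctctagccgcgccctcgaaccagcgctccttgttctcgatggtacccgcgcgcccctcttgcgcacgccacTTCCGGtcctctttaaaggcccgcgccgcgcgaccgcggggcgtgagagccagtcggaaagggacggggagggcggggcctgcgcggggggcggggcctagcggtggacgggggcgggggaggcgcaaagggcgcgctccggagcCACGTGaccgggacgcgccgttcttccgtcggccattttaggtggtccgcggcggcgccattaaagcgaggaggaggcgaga
Hnrnpdl, chr5:100039173-100039472, minus strand: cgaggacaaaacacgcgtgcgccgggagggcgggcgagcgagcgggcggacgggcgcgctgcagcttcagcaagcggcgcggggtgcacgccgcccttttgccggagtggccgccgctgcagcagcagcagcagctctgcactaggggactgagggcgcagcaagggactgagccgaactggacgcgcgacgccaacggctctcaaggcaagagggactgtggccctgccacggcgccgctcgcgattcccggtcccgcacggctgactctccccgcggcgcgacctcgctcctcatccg
Srsf5, chr12:80945249-80945548, plus strand: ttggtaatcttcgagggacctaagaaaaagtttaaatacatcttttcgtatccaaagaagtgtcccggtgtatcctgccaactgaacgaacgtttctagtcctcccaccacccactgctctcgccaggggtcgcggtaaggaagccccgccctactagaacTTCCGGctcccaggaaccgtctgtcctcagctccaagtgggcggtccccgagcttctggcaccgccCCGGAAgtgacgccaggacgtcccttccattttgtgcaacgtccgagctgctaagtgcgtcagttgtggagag
Positions count the first base of a match. Hnrnpd held 1 E-box, starting at -32 from the start, and 1 ETS core, at -177. Hnrnpdl held neither, although both genes lie on the minus strand of chromosome 5 with 0 annotated genes between them. Srsf5 held ETS cores at -23 and -89 and no E-box.

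Of the 49 genes, 44 had a promoter in the table. An E-box occurred in 6 of them (Hnrnpd, Hnrnpf, Hnrnph2, Hnrnpm, Rbmxl2 and Sugp2), or 13.6%, against 8.09% of the promoters of all 27025 genes in the table and 13.2% of those of genes that were in the top quartile of every tumor here. The ETS core occurred in 20, or 45.5%, against 16.7% and 37%. The letters TATAAA occurred in 6, or 13.6%, against 15.7% and 8%. The share of promoters with an E-box thus lay next to that of other highly expressed genes. These 3 motifs were chosen after the expression values had been seen, no match to one was counted for another, and a match describes letters and not a bound site.

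Nearly every splicing factor gene had a probe set among the brightest of the array in every tumor. Within each array the probe sets of known gene were divided into quartiles, 4 being the highest, and 45 of the 49 genes were in quartile 4 in all 17 tumors, where 28.2% of all genes were. This held for 19 of 19 hnRNP genes, 9 of 10 SR genes, 9 of 9 SF3 genes and 8 of 11 genes matched by an alias. The quartile of the top probe set favors genes with many probe sets. When the mean of all probe sets of a gene was taken instead, 37 of 49 were in quartile 4 in every tumor, against 15.1% of all genes by the same rule.

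The 4 exceptions were mostly in quartile 3. Srsf12, an SR protein of restricted tissue distribution, was in quartile 3 in every tumor, at 7.74 ± 0.26 on the log2 scale (mean ± SD, n = 17, here and below). Srek1ip1, which encodes a partner of the splicing regulator Srek1, was at 8.27 ± 0.18, also quartile 3 throughout. Akap17b, an anchor protein of protein kinase A whose alias is Sfrs17b, was at 8.56 ± 0.35 with a mean quartile of 3.06. Rbmxl2, the hnRNP G-T of male germ cells, was the 1 gene with a mean quartile under 3. It was at 5.21 ± 0.17, in quartile 2 in every tumor, between 4.97 in mad564 and 5.50 in mad548.

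**Figure D1:**
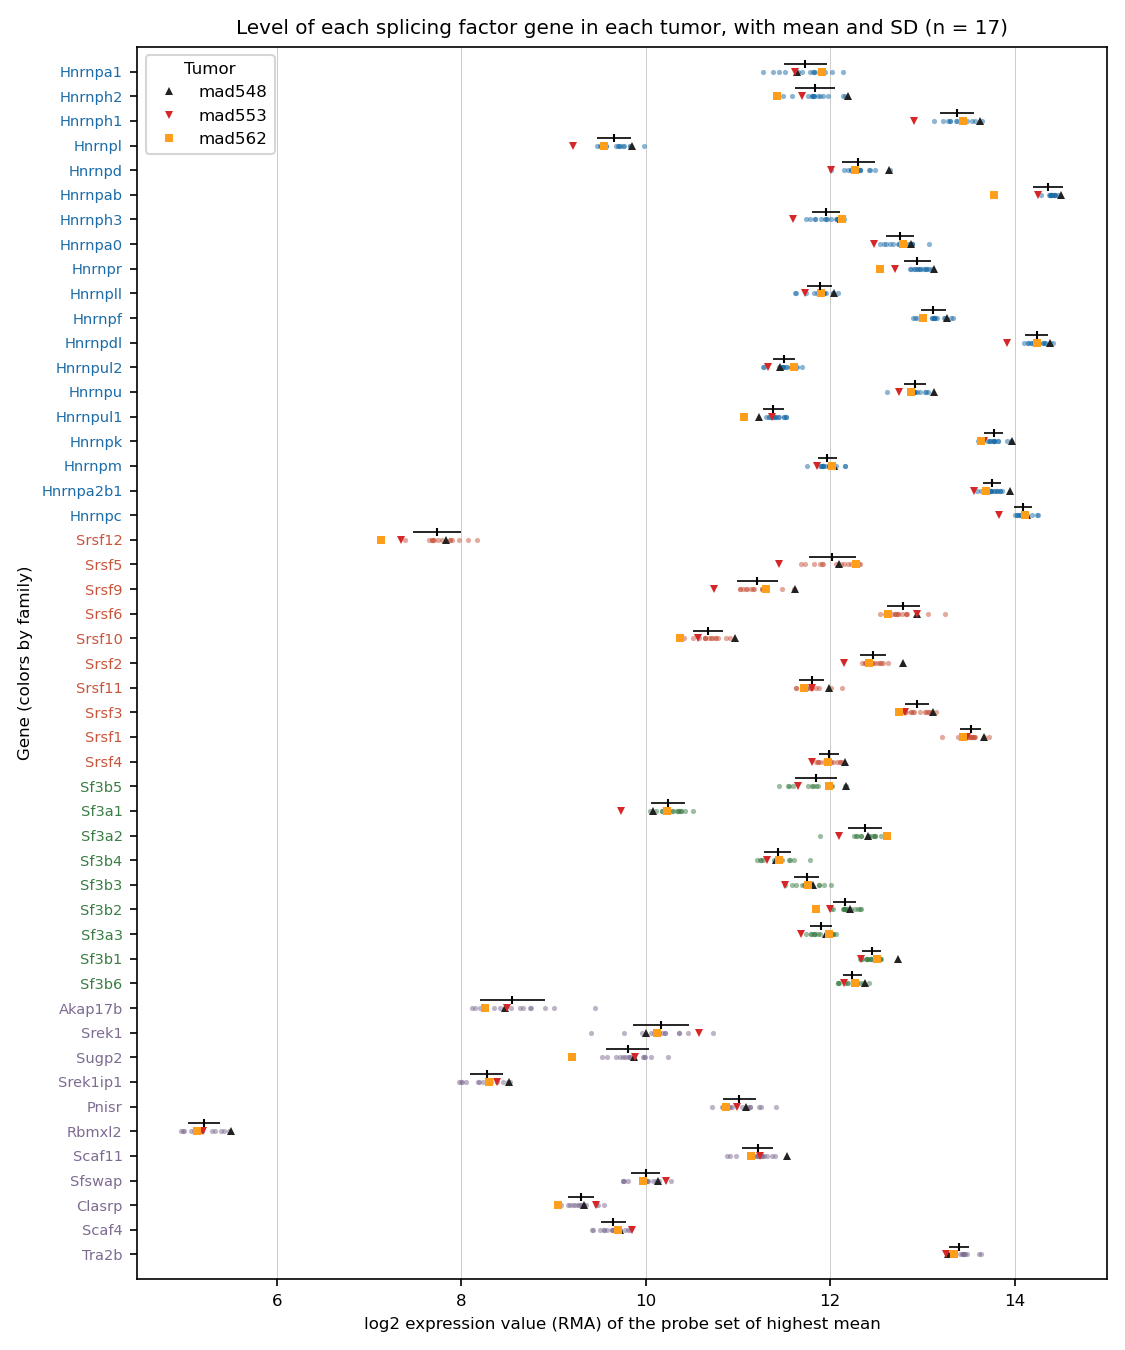
Log2 value (x axis) of the top probe set of each of the 49 genes (y axis, ordered by family and then by SD) in each of 17 tumors. Dots are tumors, the bar above them gives the mean and SD, and mad548, mad553 and mad562 have symbols of their own; mad553 lies at the low end in many rows. Levels are to be read within a row.

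The levels of the splicing factors differed little between tumors. The median SD of the log2 value was 0.148 over the 49 genes, against 0.193 for all genes, 0.207 for genes whose mean reached the array median and 0.172 for genes in quartile 4 in every tumor. Only 2 of 49 had an SD of at least 0.3, a limit passed by 19.9% of all genes, 23.5% of those reaching the array median and 9.16% of those in quartile 4. The median gene differed 1.46-fold between its highest and lowest tumor, the flattest 1.27-fold (Sf3b6) and the most variable 2.52-fold (Akap17b). An SD under 0.207 was found for 40 of the 49, against 69.3% of genes in quartile 4. By family, the median SD was 0.139 for hnRNP, 0.150 for SR, 0.136 for SF3 and 0.170 for genes matched by an alias.

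Among the hnRNPs, 4 of the 19 genes were among the 6 with the smallest SD of all 49. Hnrnpc, which coats nascent transcripts and binds uridine tracts, ranged from 13.83 in mad553 through a median of 14.09 to 14.25 in mad550 (SD 0.10). Hnrnpa2b1, an RNA-binding protein of splicing and RNA transport, ranged from 13.56 in mad553 through 13.75 to 13.95 in mad548 (SD 0.10). Hnrnpk, which binds cytosine-rich RNA, ranged from 13.61 in mad558 through 13.77 to 13.97 in mad548 (SD 0.10). These ranges correspond to folds of 1.34, 1.32 and 1.29 between the extreme tumors. Hnrnpm, the fourth, had an SD of 0.10 around 11.97. These SDs are those of the top probe sets. Among dimmer ones in quartile 4, the SD was 0.24 for 1418693_at of Hnrnpc and 0.16 to 0.21 for those of Hnrnpa2b1. For Hnrnpk it was 0.15 for 1423684_at, 0.16 for 1448176_a_at and 0.10 for 1454692_x_at.

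The hnRNP gene with the largest SD was Hnrnpa1, a repressor of many exons, at 11.73 ± 0.23. It ranged from 11.28 in mad565 through a median of 11.78 to 12.14 in mad555, or 1.82-fold. Hnrnph2, a binder of guanosine-rich RNA, followed at 11.83 ± 0.21, from 11.43 in mad562 through 11.82 to 12.19 in mad548. The high and low tumors of these genes were thus not the same.

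Of the SR genes, Srsf12 and Srsf5 varied most. Srsf12 ranged from 7.13 in mad562 through a median of 7.75 to 8.17 in mad554, or 2.06-fold. Srsf5 was at 12.02 ± 0.25 and ranged from 11.44 in mad553 through 12.10 to 12.32 in mad549, or 1.84-fold. Both are single-probe-set genes, so no second reading of them was at hand. Srsf1, the founding SR protein, was at 13.53 ± 0.11 and differed 1.42-fold between mad563 (13.22) and mad549 (13.72). Its probe set 1428099_a_at, at 13.51 ± 0.17, was also lowest in mad563 (13.08) and highest in mad549 (13.75). Other probe sets of Srsf1 shared 1 extreme or neither. Probe set 1428100_at was lowest in mad553 and highest in mad549, and 1453722_s_at lowest in mad563 and highest in mad548. Probe set 1430982_at was lowest in mad554 and highest in mad551, and 1452430_s_at lowest in mad553 and highest in mad560.

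In the SF3 complexes, Sf3b6, the subunit that contacts the branch site adenosine, had the narrowest range of all 49 by top probe sets, from 12.08 in mad551 through a median of 12.27 to 12.42 in mad565 (SD 0.10). Its dimmer probe set 1417055_at, also in quartile 4, had an SD of 0.17, from 10.66 in mad563 to 11.28 in mad559. For 1436681_x_at of Sf3b6 the SD was 0.11. Sf3b1, the large scaffold of SF3B and a frequent target of mutation in human cancers, was at 12.45 ± 0.11. It ranged from 12.33 in mad555 through 12.44 to 12.74 in mad548, and mad548 stood above the other 16 tumors, which reached 12.55. These are values of its top probe set. Its probe sets 1418562_at (SD 0.32) and 1440818_s_at (SD 0.22), also in quartile 4, were highest in mad559, and 1418561_at (SD 0.20) in mad548. Sf3b5, a small SF3B subunit, had the largest SD of the family at 11.85 ± 0.23, from 11.44 in mad560 through 11.85 to 12.18 in mad559. Its probe set 1451185_at, at 10.81 ± 0.30, was lowest in the same tumor.

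The 2 genes with an SD of at least 0.3 were both matched by an alias. Akap17b ranged from 8.11 in mad559 through a median of 8.49 to 9.45 in mad563, and the next highest tumor, mad555, was at 9.0. Its other probe set was also lowest in mad559 (5.96) and highest in mad563 (7.41). Srek1, an SR-related regulator of splice site choice, was at 10.16 ± 0.30 and ranged from 9.41 in mad565 through 10.15 to 10.73 in mad552. Of the 4 other probe sets of Srek1, 1427135_at shared both extremes, with 7.93 in mad565 and 9.50 in mad552, while 1427134_at (10.13 ± 0.18) was lowest in mad561 and highest in mad559. Sugp2, a SURP and G-patch domain protein, was at 9.81 ± 0.23, from 9.20 in mad562 through 9.83 to 10.24 in mad551.

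**Figure D2:**
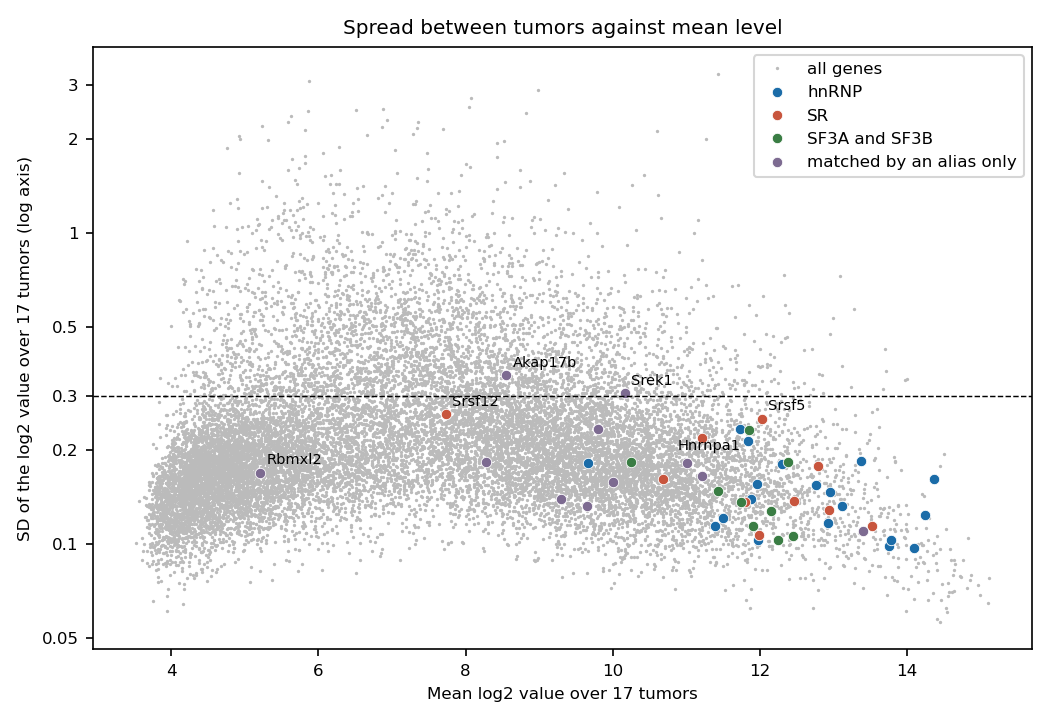
SD of the log2 value over 17 tumors (y axis, log scale) against the mean log2 value (x axis) for all 18193 genes in grey and the 49 splicing factor genes in color by family. The dashed line marks an SD of 0.3, passed by Akap17b and Srek1 among the 49.

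The tumors were not alike in the levels of these genes. Tumor mad553 gave the lowest value of 16 of the 49 genes, and its members lay a median of 0.15 below the gene medians on the log2 scale, with 37 below and 9 above. The same tumor gave the lowest value of 12.8% of all genes and of 21.1% of genes in quartile 4. Genes in quartile 4 had a median deviation of -0.10 in it. The largest gaps between mad553 and the median of the other 16 tumors were those of Srsf5 (11.44 against 12.11, a difference of -0.66), Sf3a1 (9.74 against 10.29, -0.55), Hnrnph1 (12.90 against 13.42, -0.52), Hnrnpl (9.21 against 9.71, -0.50) and Srsf9 (10.74 against 11.21, -0.48). In each of these mad553 lay below the whole range of the other 16. For Sf3a1 this rested on the top probe set. Its probe set 1419087_s_at, also in quartile 4, read 9.34 in mad553, where its mean was 9.28. The dimmer second probe sets of Hnrnph1 (1437267_x_at) and Hnrnpl (1445594_at) read 7.39 and 5.48 in mad553. Their lowest values were 7.03 in mad562 and 5.37 in mad559. Srsf5 and Srsf9 had 1 probe set each. Scaf4 was the 1 gene for which mad553 was highest, at 9.85 against 9.42 to 9.83 in the others, where 3.33% of all genes and 2.03% of those in quartile 4 were highest in it. Over all 160 probe sets, 42 were lowest in mad553, or 26.3% against 11.8% of all probe sets with 1 symbol.

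Skeletal muscle RNA was highest in the same tumor. The mean log2 value of 8 muscle genes (Acta1, Myh4, Myh1, Ckm, Tnnt3, Tnni2, Actn3 and Mylpf) reached 12.84 in mad553, was also high in mad550 (11.05) and mad549 (10.39), and lay between 5.93 and 7.04 in the other 14 tumors. The mean of the cell division markers was also lowest in mad553, at 11.34 against a median of 11.75. The mean of 6 fibroblast genes was highest there, at 10.25 against a median of 9.35. In mad550, the tumor with the next highest muscle mean, 36 of the 49 genes lay below their median and 11 above (median deviation of -0.06), and in mad549 9 lay below and 37 above (0.09). The median deviation of genes in quartile 4 was -0.046 in mad550 and 0.060 in mad549, so much of these shifts was shared by highly expressed genes. None of the 49 had its lowest value in mad550 or mad549, where 5.13% of all genes were lowest in mad550 and 2.42% in mad549. After centring of the arrays 2 of 49 were lowest in mad550, against 5.58% of genes in quartile 4. The part of muscle and fibroblast RNA in the low values of mad553 was not tested, and in bulk RNA fewer cells of a type and less RNA per cell cannot be told apart. All 9 sympathoadrenal markers measured, among them Th, Dbh and Phox2a, were in quartile 4 in every tumor, with a list mean whose median over tumors was 12.20. Of the markers of T, B and NK cells (7 measured), Schwann cells (3) and endothelium (5), 0 were in quartile 4 in every tumor. Other lists of non-tumor cells did reach it, with 4 of 7 macrophage, 2 of 6 fibroblast and 2 of 4 fat markers in quartile 4 in every tumor.

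Tumor mad562 gave the lowest value of 10 of the 49 genes, against 8.86% of all genes and 6.12% of those in quartile 4. It gave the highest value of 1 (Sf3a2, at 12.61), against 10% and 6.75%. The genes farthest from the other 16 tumors were Srsf12 (7.13 against a median of 7.77, a difference of -0.65), Sugp2 (9.20 against 9.83, -0.63), Hnrnpab (13.78 against 14.40, -0.62) and Hnrnpr (12.54 against 12.98, -0.44). For Sugp2 the gap was that of the top probe set. In mad562 its probe set 1435799_at read 8.57 (mean over tumors of 8.72) and 1436005_at read 7.41 (mean of 7.22). The members' median deviation was small in this tumor, at -0.04, with 31 below and 17 above, against -0.002 for genes in quartile 4. Over all 160 probe sets, 26 were lowest in mad562, or 16.3% against 9.36% of all probe sets with 1 symbol. In mad562 the mean of 5 liver genes was 10.08, against 7.66 in mad559 and at most 5.64 in the other tumors, and the macrophage list was highest, at 11.01. Their part in the low values was not tested.

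At the upper end, mad548, a tumor singled out after its values were seen, gave the highest value of 13 of the 49 genes, against 13.5% of all genes and 17.1% of those in quartile 4, and the lowest of 0, against 3.12% and 2.53%. There Srsf9 was at 11.62, with a difference of 0.45 from the median of the other 16, Hnrnph2 at 12.19 (0.37) and Sf3b1 at 12.74 (0.31). The mean of 4 fat genes was highest in mad548, at 11.27 against a median of 9.19, and the part of fat RNA in these values was not tested. The count depended on the level of the arrays. The medians of the arrays ran from 6.28 to 6.51, with mad548 at 6.45 and mad554 highest, and after each array was centred on its median mad548 was highest for 4 of 49, against 5.60% of genes in quartile 4. After the same centring mad553 was lowest for 11 of 49 (16.6% of genes in quartile 4), mad562 for 10 (7.88%) and mad554 for 9 (11.7%). The highest tumor was then mad565 for 11 of 49 (12.2% of genes in quartile 4), mad563 for 10 (19.8%) and mad559 for 7 (9.71%).

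**Figure D3:**
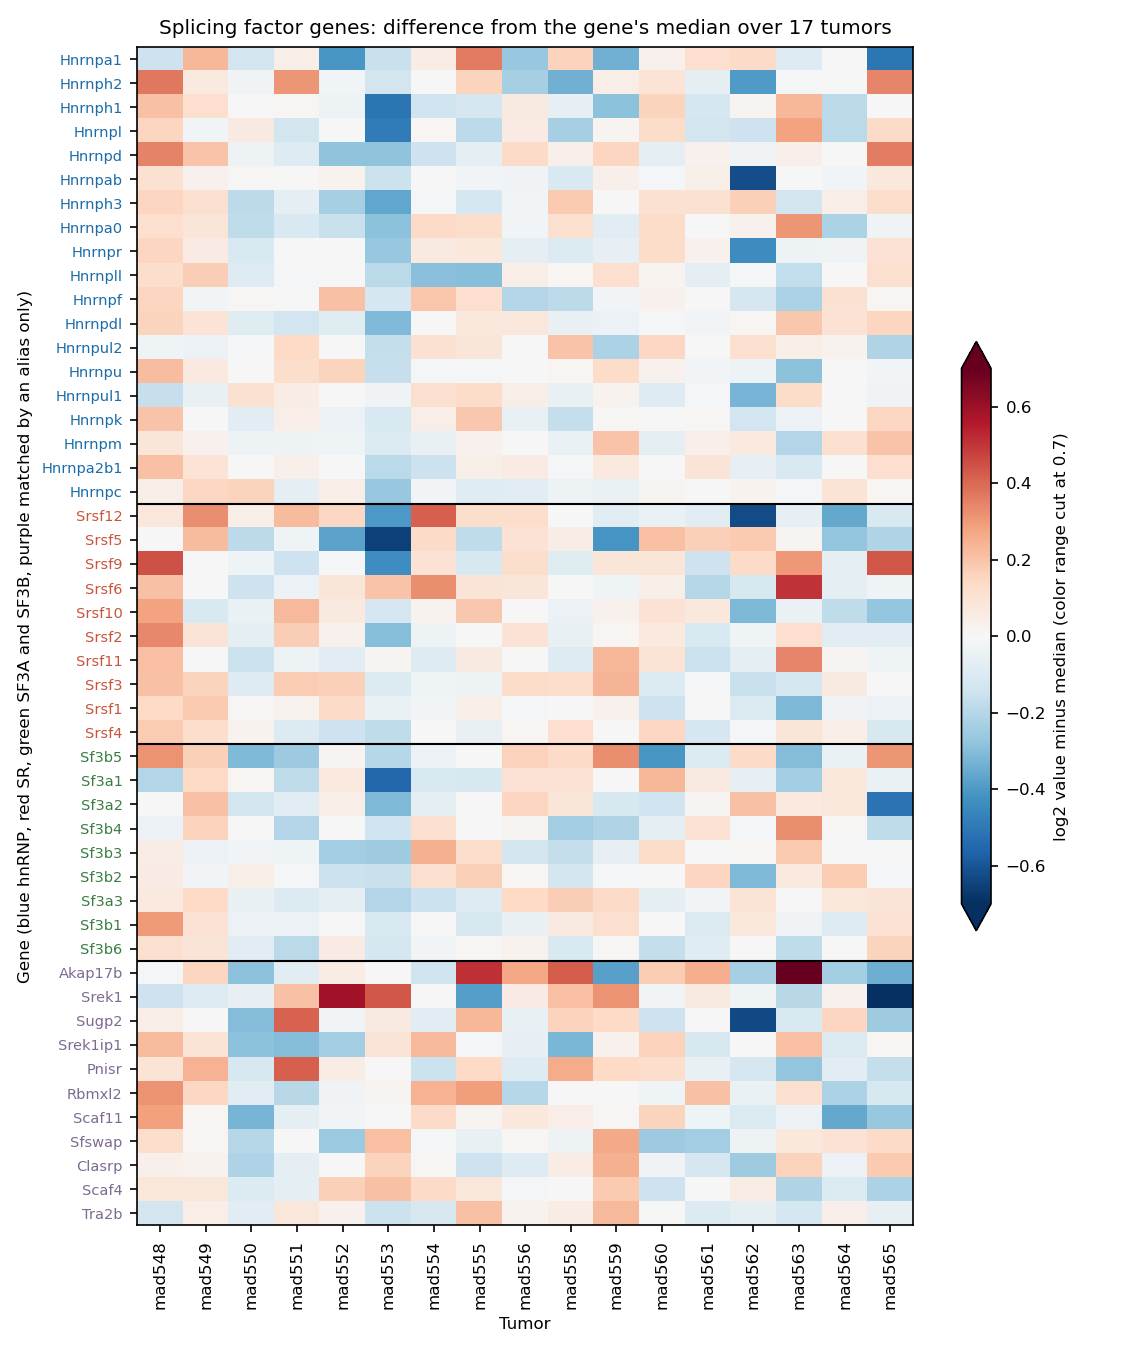
Difference of each gene's log2 value from its own median over the 17 tumors, with genes as rows in 4 families and tumors as columns. Blue is below and red above the median; mad553 is blue in most rows of the hnRNP, SR and SF3 genes, where it is the lowest tumor for 16 of the 49 genes in all, and mad548 is mostly red.

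Probe sets of the same gene did not always stand at the same place in the array. Of 38 splicing factor genes with several probe sets, 21 spanned at most 1 quartile, against 53.4% of all such genes, and 10 spanned at least 2, against 27%. Both counts were near the shares of all such genes. The widest spans, 3 quartiles, were those of Hnrnpc, Sf3a1, Sf3b5 and Sf3b6. In each of them 1 probe set was in quartile 1 in every tumor (means of 4.28, 4.39, 4.01 and 4.12) while the top probe set was in quartile 4. Sfswap, the homolog of a fly splicing regulator, with 6 probe sets, spanned 2.53 quartiles and Srsf1, with 7, spanned 2.24. Which transcripts these dim probe sets read was not analysed here.

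For Hnrnpab, a relative of Hnrnpd, the low value of mad562 belonged to its top probe set alone among the brightest ones. Probe set 1455855_x_at read 13.78 in mad562 and 14.25 to 14.51 in the other tumors. In the same tumor 1415914_at read 14.32, where its mean over tumors was 14.16 ± 0.10, and 1453849_s_at read 13.54, where its mean was 13.38 ± 0.15. Both were above their means where the top probe set was at its lowest. The probe set 1426114_at, at 9.42 ± 0.40, was also lowest in mad562, at 8.86.

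**Figure D4:**
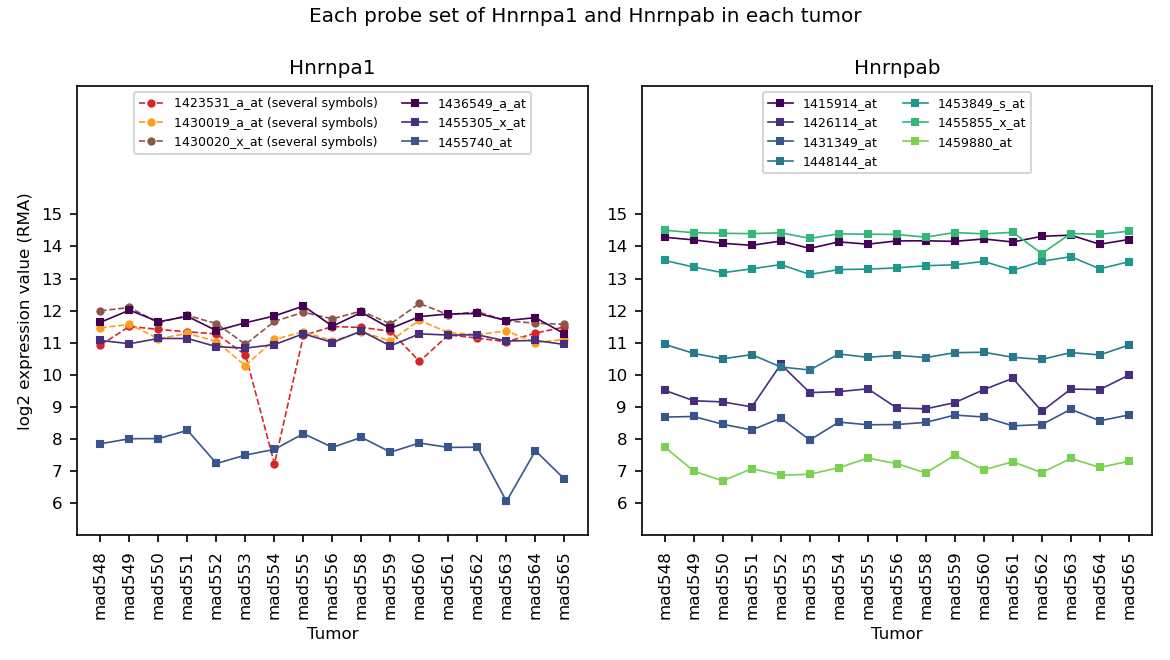
Log2 value (y axis) of each probe set in each tumor (x axis), for Hnrnpa1 on the left and Hnrnpab on the right. Dashed lines are probe sets assigned to Hnrnpa1 together with other symbols; 1423531_a_at drops to 7.23 in mad554, and 1455855_x_at of Hnrnpab drops to 13.78 in mad562 where 1415914_at does not.

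To see whether related factors rose and fell together, 13 pairs were correlated over the 17 tumors, with two-sided permutation tests and Benjamini-Hochberg adjustment over the 13. Hnrnpd (AUF1), which binds AU-rich RNA, and its paralog Hnrnpdl were related, with Pearson's r of 0.72 (permutation p = 0.00118, adjusted p = 0.0153) and Spearman's rho of 0.64 (permutation p = 0.00726, adjusted p = 0.0472). Hnrnpd ranged from 12.01 in mad553 through a median of 12.29 to 12.65 in mad565, and Hnrnpdl from 13.92 in mad553 through 14.23 to 14.42 in mad563. Both were lowest in mad553. Without mad548 and mad565, the tumors farthest from the median of Hnrnpd, r was 0.63, and leaving out each tumor in turn gave 0.64 to 0.76. Of all other genes, 0.742% had an r with Hnrnpd at least as high, and of those reaching the array median 1.13%.

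Srsf5 and Clk1, a kinase of SR proteins, were related with r of 0.67 (permutation p = 0.00273, adjusted p = 0.0177) and rho of 0.76 (permutation p = 0.00067, adjusted p = 0.00871). Clk1 was at 10.89 ± 0.25, from 10.34 in mad559 to 11.29 in mad562. The tumors lowest in Srsf5, mad553 and mad559, were also the lowest in Clk1, and without these 2 tumors r was 0.49. Of all other genes, 1.12% had an r with Srsf5 at least as high as that of Clk1, and of those reaching the array median 1.68%. The call was lost on leaving out mad549 (r of 0.64, adjusted p = 0.0504 by permutation) or mad559 (r of 0.62, adjusted p = 0.0664 by permutation). Without the 3 tumors of high muscle RNA neither pair passed: r was 0.62 for Hnrnpd and Hnrnpdl and 0.59 for Srsf5 and Clk1, each with an adjusted permutation p of 0.159 in the 14 tumors.

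The other 11 pairs passed neither of the adjusted tests. Among paralogs, r was -0.12 for Hnrnpa1 and Hnrnpa2b1, 0.28 for Hnrnpl and Hnrnpll, 0.23 for Hnrnph1 and Hnrnph2, 0.28 for Hnrnpab and Hnrnpd, -0.15 for Srsf1 and Srsf9 and 0.19 for Srsf4 and Srsf6. Among subunits that work in the same complex, r was 0.08 for Sf3a1 and Sf3b1, -0.25 for Sf3b1 and Sf3b2 and 0.38 for Sf3a2 and Sf3a3. Several of these values depended on the choice of probe sets. With the mean of all probe sets of a gene, r was 0.82 for Hnrnph1 and Hnrnph2, which then passed (adjusted permutation p of 0.00143), and turned to 0.48 for Hnrnpa1 and Hnrnpa2b1 and 0.24 for Srsf1 and Srsf9, which did not pass. The change for Hnrnph1 and Hnrnph2 came from 1 dim probe set of Hnrnph1, since Hnrnph2 had 1 probe set. That probe set, 1437267_x_at, was at 7.53 ± 0.27, where the top probe set of Hnrnph1 was at 13.38. With the top probe sets, for Sf3a2 and Sf3a3 rho was 0.58 (permutation p = 0.0166, adjusted p = 0.0721). Hnrnpa1 had r of 0.26 with Ptbp1, another repressor of exons, and of -0.09 with Mki67, a marker of dividing cells. A missed threshold does not show that the levels were unrelated.

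Over all 1176 pairs of the 49 genes the median r was 0.15, with quartiles of -0.07 and 0.37, and over all pairs of genes reaching the array median it was 0.06, with quartiles of -0.16 and 0.27. All these pairs share the same 17 arrays and their normalization, so they are given as a description.

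**Figure D5:**
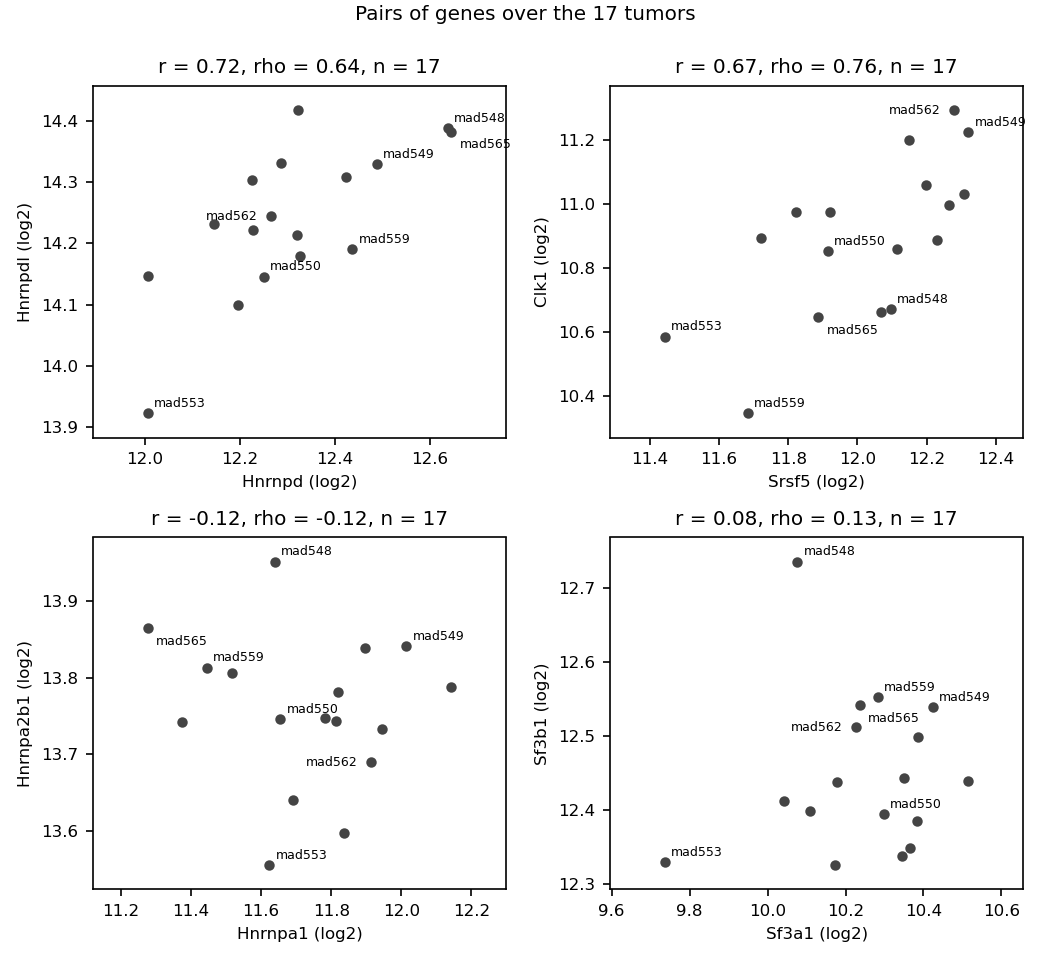
Log2 values of 4 pairs of genes, each point 1 of the 17 tumors with 7 tumors named. Hnrnpd with Hnrnpdl and Srsf5 with Clk1 rose together (r of 0.72 and 0.67), while Hnrnpa1 with Hnrnpa2b1 and Sf3a1 with Sf3b1 did not pass the test (r of -0.12 and 0.08). With the mean of all probe sets Hnrnpa1 and Hnrnpa2b1 had r of 0.48, which did not pass either.

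The genes whose levels most resembled those of the 2 most variable hnRNP, SR and SF3 genes matched by symbol were taken from all genes reaching the array median, by r over the 17 tumors and with no test. For Hnrnpa1 they were Klhl22 (0.78), Zfp449 (0.78) and Stmn4 (0.77), and for Hnrnph2 they were Btf3 (0.86), Hnrnpk (0.86) and Elapor2 (0.86). For Srsf12 they were Fzd9 (0.81), Bmpr1a (0.81) and Ugcg (0.77), and for Srsf5 they were Slc25a3 (0.89), Stambpl1 (0.87) and B4gat1 (0.87). For Sf3b5 they were Uqcr10, a subunit of respiratory complex III (0.93), and the mitochondrial ribosomal protein genes Mrpl46 (0.92) and Mrps26 (0.92). For Sf3a1 they were Lrrc8c (0.86), Gmnn (0.86) and Atp23 (0.85). Of these 18 genes, Hnrnpk was the 1 splicing factor of the set.

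Other genes of splicing were described by lists. Of the U2 snRNP and branch site proteins beside SF3, 15 of 15 measured were in quartile 4 in every tumor and 0 had an SD of at least 0.3. Sf1, which first recognizes the branch site, was at 15.12 ± 0.08 and Htatsf1 at 11.68 ± 0.10, while the largest SDs were 0.20 for Rbm17 and 0.19 for Ddx42. Of the Sm core and the proteins of U1, U4/U6 and U5, 21 of 23 measured were in quartile 4. The largest SDs were 0.38 for Lsm2, at 7.47 with its lowest value of 6.58 in mad553 and its highest of 8.21 in mad548, and 0.23 for Lsm6. The smallest were 0.09 for Snrpg and 0.11 for Eftud2.

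Of 10 kinases and phosphatases of SR proteins, 8 were in quartile 4 in every tumor. Srpk3, the SRPK kinase known from muscle, varied most, at 8.14 ± 0.60 from 6.88 in mad558 to 9.31 in mad554. In the 3 tumors of high muscle RNA it read 8.80 (mad553), 8.25 (mad550) and 7.89 (mad549). The part of muscle RNA in these values was not tested. Clk1 followed with an SD of 0.25, and the smallest SDs were 0.12 for Clk3 and 0.13 for Ppp1ca, the catalytic subunit of protein phosphatase 1. Of 6 arginine methyltransferase genes and their partners, 5 were in quartile 4. Prmt6 was at 9.01 ± 0.30 and Prmt1, the main asymmetric arginine methyltransferase, at 12.53 ± 0.22, and the smallest SDs were 0.10 for Clns1a and 0.13 for Prmt5.

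Of 47 other RNA-binding splicing regulators measured, a list that shares Tra2b with the 49 genes, 38 were in quartile 4 in every tumor and 7 had an SD of at least 0.3. The neuronal regulators Rbfox3 (NeuN) and Rbfox1 varied most. Rbfox3 was at 8.0 ± 0.98, from 6.86 in mad550 to 10.16 in mad563, and Rbfox1 at 10.34 ± 0.54, from 9.15 in mad554 to 11.13 in mad563. The flattest were Tardbp (TDP-43) at 12.72 ± 0.08 and Celf1 at 13.29 ± 0.08. The median SD of this list was 0.184, that of the kinases and phosphatases 0.201, that of the U2 proteins 0.141, that of the other snRNP proteins 0.145 and that of the methyltransferases 0.136, beside 0.148 for the 49 genes and 0.193 for all genes.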

How the data were processed

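Total RNA of 17 TH-MYCN tumors was measured with 1 array each. Per the labels, the authors made the deposited log2 values with RMA in Partek 6.4, which corrects background, sets all arrays to the same distribution and summarizes probes. The study also names RMA for these arrays in its results, whereas its methods section names MAS5. The values, which ran from 3.28 to 15.59, fit a log2 scale. The study speaks of 18 tumors, of which 17 were analysed here. RMA pulls low values together, so small spreads near the floor carry little information. Arrays give no read depth, and their number limits the precision.

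Of 45101 probe sets, 34945 had 1 gene symbol in the platform annotation. Those with several (932) or none (9160) and 64 controls represented no gene. Quartiles were set within each array over the probe sets with 1 symbol. Since probe sets differ in affinity, a quartile places a probe set within its array and does not rank transcript amounts between genes. Relations used permutation tests (100000 resamples, seed 1) with Benjamini-Hochberg adjustment and a threshold of 0.05. Of 14 pairs, Srsf3 and Srsf7 could not be computed. The test was also tried on simulated data. Calculations were made with SciPy 1.17.1 and NumPy 2.4.6 under Python 3.11.15. Tables were handled with pandas 2.3.3, and plots were drawn with Matplotlib 3.10.9.

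Members and lists were chosen with earlier results of these data known. Genes were named by rule: the 6 members of largest and 6 of smallest SD, those with a mean quartile under 3, the 6 with the widest probe set span, the 4 farthest off in mad562, the genes of the pairs, the 2 largest and 2 smallest SD of each list, and the 3 genes most like the 2 most variable hnRNP, SR and SF3 genes. Names given for mad553 and mad548, motif names, and Srek1ip1, Scaf4 and Hnrnpa3 were chosen after values were seen. Alternatives covered quartile limits, probe set choice, centring, the measure of spread, membership and tumors left out.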

Additional observations from a re-analysis of the deposited data

How the results depend on the processing

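The number of splicing factor genes in quartile 4 in every tumor was 45 in the results above and ran from 37 to 45 over 6 alternatives (37 of 38 with membership by symbol only). The median SD stayed between 0.137 and 0.158 over 7 alternatives, and between 0.137 and 0.153 on leaving out each tumor in turn. The count with an SD of at least 0.3, which was 2, fell to 1 with the mean of all probe sets, to 1 without probe sets ending in _x_at or _s_at, to 1 with the median absolute deviation, and to 0 with membership by symbol only, a setting that leaves out both genes by construction. It was 1 to 2 on leaving out each tumor in turn. The number of related pairs, 2 by r, was 0 without mad549, mad550 and mad553, 3 with the mean of all probe sets (Hnrnph1 and Hnrnph2, r of 0.82, adjusted permutation p of 0.00143), 3 without mad562 (Hnrnpab and Hnrnpd, r of 0.61, adjusted permutation p of 0.0495), and 1 to 3 on leaving out each tumor in turn. The pass of Hnrnph1 and Hnrnph2 rested on the dim probe set 1437267_x_at of Hnrnph1. Without mad565 Sf3a2 and Sf3a3 had r of 0.71 (adjusted permutation p of 0.0210). The sign of r turned for pairs that passed neither way: with the mean of all probe sets to 0.48 (Hnrnpa1 and Hnrnpa2b1), 0.24 (Srsf1 and Srsf9), -0.0082 (Sf3a2 and Sf3a3) and 0.088 (Hnrnpa1 and Mki67), without _x_at and _s_at probe sets to 0.095 (Sf3b1 and Sf3b2) and -0.43 (Sf3a2 and Sf3a3), and without the 3 tumors of high muscle RNA to -0.27 (Sf3a1 and Sf3b1). On leaving out each tumor in turn r ran from -0.22 to 0.022 for Hnrnpa1 and Hnrnpa2b1, -0.37 to 0.090 for Srsf1 and Srsf9, -0.19 to 0.34 for Sf3a1 and Sf3b1 and -0.26 to 0.041 for Hnrnpa1 and Mki67. The causes were not tested, beside the smaller number of tumors. The count of genes whose probe sets spanned at most 1 quartile was 21 of 38, 24 of 38 with limits from all probe sets and 19 of 31 without _x_at and _s_at probe sets. Leaving out each tumor in turn, and the removal of mad562 or of the 3 tumors of high muscle RNA for the quartile count, were added after the data were seen. No paired analysis was possible because the labels give 1 group of unmatched tumors.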

Other observations

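The 7 probe sets that the annotation gives to a splicing factor gene of these families together with other symbols were left out of the results above. The values below were picked out after they were seen. Probe set 1423531_a_at, assigned to Hnrnpa1 and to Gm10052, Hnrnpa1l2-ps2 and Gm5643, read 7.23 in mad554 and 10.42 to 11.51 in the other 16 tumors. In mad554 the probe sets 1430019_a_at and 1430020_x_at, which carry the same 4 symbols, read 11.10 and 11.67, and 1436549_a_at, assigned to Hnrnpa1 alone, read 11.84. The drop of 1423531_a_at was thus seen in 1 of these 4 probe sets. The lowest tumor of 1430019_a_at and 1430020_x_at was mad553, at 10.28 and 10.95.

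Hnrnpa3, an hnRNP that shares its 4 probe sets with Gm6793, read in quartile 4 in every tumor with all of them. Their means were 13.40 ± 0.12, 13.74 ± 0.08, 11.88 ± 0.18 and 12.53 ± 0.14 (SD, n = 17).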
